A study of Mus musculus with 15 samples.

Results

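Small leucine-rich proteoglycans (SLRPs) are secreted matrix proteins whose cores are built of leucine-rich repeats, and most of them carry sulfated sugar chains. They bind collagen fibrils and set fibril width and spacing, and several also hold growth factors of the TGF-beta family in the matrix. They are typical products of fibroblasts, osteogenic cells and other stromal cells, and endothelial cells are best known among them for biglycan. The 7 SLRP genes described here were taken by symbol from the 44674 rows of the gene count table: decorin (Dcn), biglycan (Bgn), asporin (Aspn), lumican (Lum), fibromodulin (Fmod), osteoglycin (Ogn) and podocan (Podn). All 7 passed the filter on low counts, with 19401 genes tested.

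The 15 libraries came from primary mouse cell cultures in 8 conditions, with 2 libraries each except the fourth passage, which had 1. Whole bone marrow (WBM) of tamoxifen-treated Tie2-CreERT2;Rosa26-tdTomato mice, aged 4 to 6 months, was cultured in endothelial medium, and the tdTomato+ CD45- cells were sorted at the end of this first culture (P0) into endomucin-positive (P0 Emcn+) and endomucin-negative (P0 Emcn-) bone marrow endothelial cells (BMECs). Sorted Emcn- cells were passaged serially (P1, P2, P3 and P4). The Lung libraries came from Emcn- cells of lung cultures of the same reporter strain, and the mesenchymal stromal cell (MSC) libraries from tdTomato+ cells of Osx-Cre;Rosa26-tdTomato marrow grown in a mesenchymal medium. The labels give genotype WT for every library and no other treatment. The tdTomato label records activity of the Tek or Osx promoter driving Cre, whether or not the gene was still transcribed at harvest.

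The labels place each library in 1 of 4 batches. Replicates 1 of P0 Emcn+, P0 Emcn- and Lung are batch d and their replicates 2 are batch a, the P4 library and replicates 1 of P1 to P3 are batch b, and replicates 2 of P1 to P3 and both MSC libraries are batch c. P0 and Lung libraries therefore share no batch with passaged or MSC libraries, and for comparisons between these 2 sets batch and condition cannot be told apart. Library totals were 9914620 to 39718807 counts, the lowest in P0 Emcn- replicate 2, so that 3 counts were worth 0.0755 to 0.303 CPM (counts scaled to a common library total). The summed level of 10 endothelial markers, among them Emcn itself, was 10626 to 12682 CPM in P0 Emcn+ and 42.7 to 622 CPM in all other libraries. The 10 fibroblast markers summed to 225 to 273 CPM in P0 Emcn+ and to 3949 to 19970.2 CPM elsewhere. Cdh5 (VE-cadherin) was 62.9 CPM in P0 Emcn-, 0.121 CPM in P3 and 5670.3 CPM in P0 Emcn+, so the labelled endothelial identity was carried by its markers mainly in P0 Emcn+.

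The 7 genes together took 0.0341% and 0.0560% of all counts in P0 Emcn+, 0.717% to 0.750% in P0 Emcn-, 0.619% to 0.640% in Lung, 0.480% to 0.649% in the passaged cells and 1.12% to 1.36% in MSC. P0 Emcn+ was the lowest of the 8 conditions for all 7 genes, and MSC was the highest for 6 of them, the exception being Dcn. The share of all genes with such an order was not counted, but 20.1% of those tested were called higher in MSC than in P0 Emcn+. A test for any difference over the 8 conditions was passed by all 7 (edgeR quasi-likelihood F test, adjusted p between 3.39e-06 for Fmod and 0.00264 for Dcn), as it was by 63.5% of all genes tested. Between conditions next to each other in a gene's order of levels, 9 of 49 differences were called, 6 of them over P0 Emcn+ and 3 of them MSC over Lung. Of all genes tested, 19.6% were called higher in P3 than in P0 Emcn+, 19.9% in P1, 18.1% in P4, and 11.2% in MSC than in Lung. Throughout, a gene was called when its Benjamini-Hochberg adjusted p was below 0.05 and its log2 fold change exceeded 1.5 in size, and for a slope or for any difference by the adjusted p alone.

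**Figure D1:**
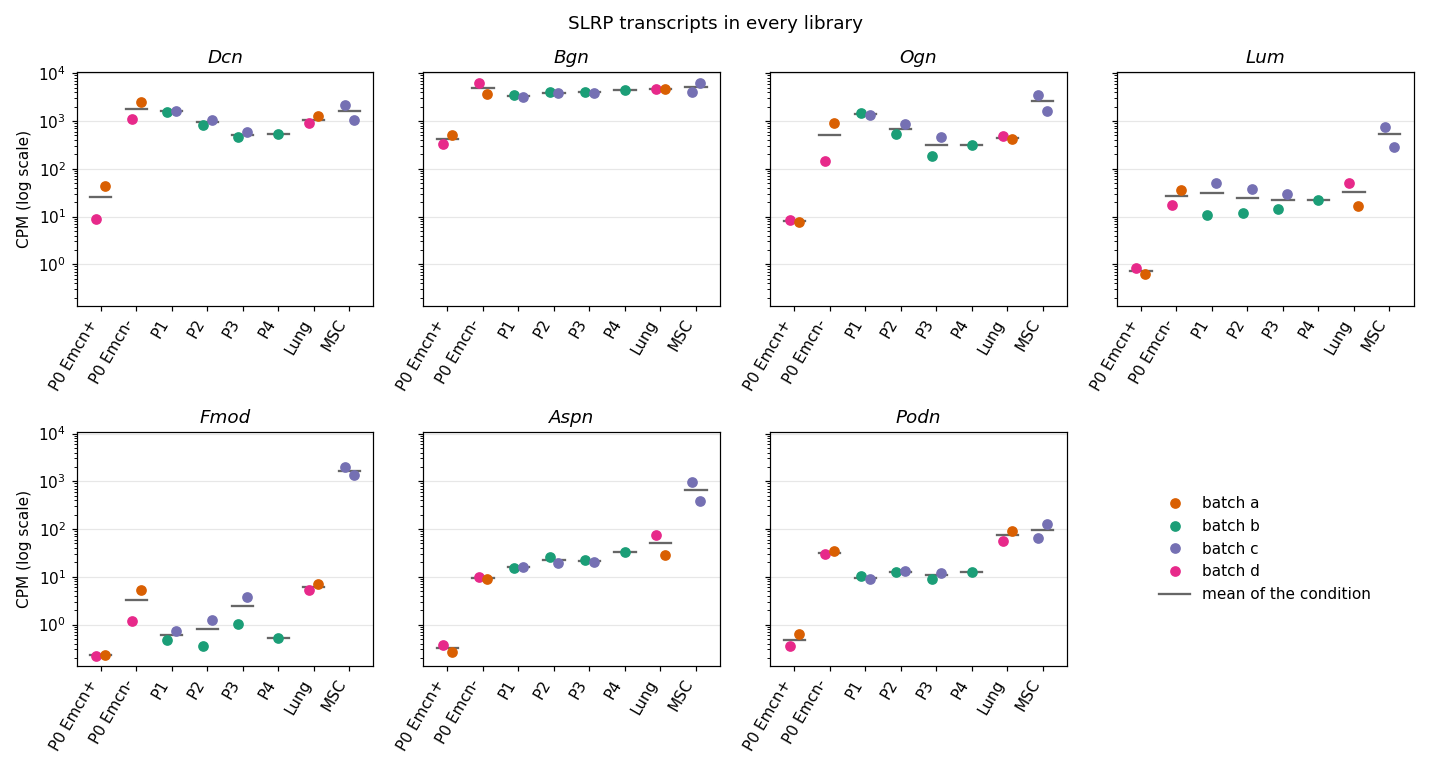
CPM of each SLRP gene in every library on a log axis, one panel per gene, with conditions along the horizontal axis, points coloured by the labelled batch and short bars at the mean of each condition. The 2 P0 Emcn+ libraries are below every other library for all 7 genes, and the MSC libraries are far above the rest for Fmod, Aspn and Lum but not for Dcn and Bgn.

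Several of these genes lie side by side in the mouse genome (GRCm38, GENCODE annotation). Dcn and Lum are 46.984 kb apart on chromosome 10, on the same strand, followed by keratocan (Kera) and epiphycan (Epyc). Aspn and Ogn lie 40.48 kb apart on chromosome 13 with osteomodulin (Omd) between them and Ecm2 next to Aspn, all on the same strand. Fmod on chromosome 1 has the SLRP gene Prelp 115.839 kb away, on the opposite strand, while Bgn on chromosome X and Podn on chromosome 4 have no SLRP gene among their 2 nearest protein-coding genes on either side. Cenpp runs antisense across Aspn and Ogn and its exons overlap those of Aspn. Cenpp held only 4 to 264 counts per library, but whether reads were counted by strand is not given in the sources used here.

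RefSeq promoter windows (GRCm38.p6, 250 bases before to 50 bases after the start) were held for 5 of the 7 genes, not for Dcn or Lum. Fmod (642-fold), Aspn (75.3-fold) and Ogn (5.37-fold) were among the genes called higher in MSC than in P0 Emcn- cells. The Ogn call hung on single libraries. The windows of Fmod, Aspn and Ogn are shown, and that of Bgn because it was not called. They are written 5' to 3', and capitals mark matches on either strand to the motifs searched, which were the TATA box TATAAA, the CCAAT box, the Runx core TGTGGT, the AP-1 site TGANTCA, and as E-boxes both CAGCTG and the variant CACCTG.
Fmod, chr1:134037004-134037303, plus strand: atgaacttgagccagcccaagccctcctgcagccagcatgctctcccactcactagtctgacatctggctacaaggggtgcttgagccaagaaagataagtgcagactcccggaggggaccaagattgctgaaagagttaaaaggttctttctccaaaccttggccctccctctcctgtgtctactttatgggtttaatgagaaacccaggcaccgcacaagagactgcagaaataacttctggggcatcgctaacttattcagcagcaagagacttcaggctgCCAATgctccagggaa
Aspn, chr13:49544193-49544492, plus strand: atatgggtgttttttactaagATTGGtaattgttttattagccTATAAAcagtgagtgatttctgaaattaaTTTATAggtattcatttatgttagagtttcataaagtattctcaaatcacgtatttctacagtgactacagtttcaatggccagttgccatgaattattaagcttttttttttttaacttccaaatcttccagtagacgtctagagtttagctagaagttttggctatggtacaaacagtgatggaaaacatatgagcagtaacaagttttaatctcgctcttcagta
Ogn, chr13:49607765-49608064, plus strand: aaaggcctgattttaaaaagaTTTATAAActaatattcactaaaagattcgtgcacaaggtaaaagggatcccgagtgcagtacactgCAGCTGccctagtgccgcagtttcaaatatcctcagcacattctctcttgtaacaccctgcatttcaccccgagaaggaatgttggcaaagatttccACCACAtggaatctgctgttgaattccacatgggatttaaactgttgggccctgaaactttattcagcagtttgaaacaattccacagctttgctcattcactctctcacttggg
Bgn, chrX:73483351-73483650, plus strand: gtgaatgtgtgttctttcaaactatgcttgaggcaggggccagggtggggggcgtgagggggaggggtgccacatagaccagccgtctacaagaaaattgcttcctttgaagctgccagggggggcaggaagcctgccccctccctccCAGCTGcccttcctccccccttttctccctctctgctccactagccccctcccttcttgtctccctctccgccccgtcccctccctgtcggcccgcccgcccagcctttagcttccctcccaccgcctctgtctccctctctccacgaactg
TATAAA was found in the Aspn and Ogn windows, and in 13.6% of all 32851 promoter windows. Counted in bases from the start, its matches were at -207 and -178 in Aspn and at -227 and -229 in Ogn. The matches to both strands overlap in Ogn. TGTGGT was found in Ogn alone of the 5 genes and in 16.8% of all windows, and TGANTCA in none of the 5 and in 7.81% of all. CCAAT occurred in Fmod, 35 bases after the start, and in Aspn at -229, and in 37.4% of all windows. CAGCTG occurred in Ogn, Bgn and a Podn window and in 16.3% of all. CACCTG was found only in that Podn window, and in 20.2% of all. The windows differed widely in base composition. G and C made up 31% of the Aspn window, lower than nearly all windows, since only 1.28% had less, then 42.3% in Ogn, 51% in Fmod and 63.7% in Bgn. The 2 Podn windows held 63% and 77%. A match describes the letters of these windows and says nothing of binding.

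The first comparison was between the BMEC subsets of the same P0 cultures. All 7 SLRP genes were lower in P0 Emcn+ than in P0 Emcn- cells, where 11.4% of all genes tested were called lower, and the median log2 fold change of the 7 was -5.15 beside -0.06 over all genes. Fewer SLRP-producing cells in the sort and less SLRP RNA per cell cannot be told apart in bulk libraries. Comparisons against P0 Emcn- share its 2 libraries, as those against P0 Emcn+ share theirs.

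Among the class I members, which bind collagen and TGF-beta, Dcn was scarce in P0 Emcn+ with 8.78 and 43.5 CPM, whereas P0 Emcn- held 1108 and 2478 CPM. The groups did not overlap, and the difference was 67.4-fold (log2 fold change -6.07, SE 0.78, edgeR adjusted p = 0.000233). Bgn, which also binds collagen and signals through Toll-like receptors once released, was the most abundant of the 7 in P0 Emcn+, with 322 and 507 CPM, or 10176 and 13130 counts. It was at 6180.4 and 3710.0 CPM in P0 Emcn-, an 11.7-fold difference (log2 fold change -3.54, SE 0.35, adjusted p = 4.9e-05). Aspn, a class I member named for its run of aspartate residues, had only 12 and 7 counts in P0 Emcn+ (0.380 and 0.271 CPM) against 9.94 and 9.18 in P0 Emcn- cells (log2 fold change -4.81, SE 0.65, adjusted p = 0.000309).

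The class II members Lum and Fmod carry keratan sulfate and direct the early growth of collagen fibrils. Lum was at 0.824 and 0.618 CPM in P0 Emcn+ cells, and P0 Emcn- had 17.5 and 36.3 CPM (log2 fold change -5.15, SE 1.08, adjusted p = 0.00436). Fmod was low in both subsets, with 7 and 6 counts in P0 Emcn+ and 46 and 52 counts in P0 Emcn-. These counts corresponded to 0.222 and 0.232 CPM against 1.16 and 5.24 CPM (log2 fold change -3.57, SE 0.98, adjusted p = 0.0176). The call on Fmod was lost without either P0 Emcn+ library (adjusted p = 0.0948 and 0.0791) and without the second P0 Emcn- replicate (-2.30, adjusted p = 0.101).

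Ogn, a class III member first named for its effect on bone formation, was at 8.37 and 7.85 CPM in P0 Emcn+. Its P0 Emcn- libraries were far apart, at 148 CPM (replicate 1) and 894 CPM (replicate 2), and still did not overlap with P0 Emcn+ (log2 fold change -5.97, SE 0.87, adjusted p = 0.000502). Podn, the class V member, was at 0.349 and 0.618 CPM in P0 Emcn+, and P0 Emcn- cells had 30.0 and 34.3 CPM. This was the difference with the smallest adjusted p of the 7 (log2 fold change -6.03, SE 0.43, adjusted p = 6.29e-06).

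The direction held within each batch for all 7 genes. Dcn was 126-fold lower in P0 Emcn+ in batch d and 57.0-fold lower in batch a, Bgn 19.2-fold and 7.31-fold, Ogn 17.7-fold and 114-fold, Lum 21.3-fold and 58.7-fold, Fmod 5.22-fold and 22.6-fold, Aspn 26.2-fold and 33.9-fold, and Podn 86.0-fold and 55.5-fold. Podn and Aspn thus differed little between batches, and Ogn most.

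Genes that act with the SLRPs were split in the same comparison. Of 14 collagen fibril genes, 14 were lower in P0 Emcn+ (median log2 fold change -5.59), among them Tnxb (-6.28), Col6a2 (-6.27), Col3a1 (-6.25) and Col1a1 (-6.12). Of 11 other SLRP family genes, 4 were lower: Omd (-4.48), Prelp (-4.25), Chadl (-2.15) and Tsku (-1.55). Counts were low for Omd, 10 and 0 in P0 Emcn+ against 29 and 83, and for Chadl, 5 and 11 against 40 and 17. Within batch d Omd was at 0.317 CPM in P0 Emcn+ against 0.730 CPM. The 22 enzymes that build chondroitin and dermatan sulfate chains, the sugar chains of Dcn and Bgn, showed no common direction, with 3 higher and 3 lower (median 0.16). The chondroitin polymerising factor gene Chpf was at 2.86 CPM in P0 Emcn+ against 88.0 CPM (log2 fold change -4.92), whereas the sulfotransferase gene Chst7 was at 69.9 against 3.10 CPM (4.50). Of 3 keratan sulfate enzymes tested, 2 were called higher in P0 Emcn+, the sulfotransferase genes Chst1 (2.60) and Chst2 (2.15). The class II cores Lum and Fmod were under 1 CPM in the same libraries. In the same libraries 10 of 10 endothelial markers were higher and 9 of 10 fibroblast markers lower in P0 Emcn+, and 2 of 10 macrophage markers were higher. The endothelial list includes Emcn, whose protein defined the sort, so that marker is no independent evidence. The fibroblast list shares Col1a1, Col1a2 and Col3a1 with the collagen list. The part of these cell types in the SLRP differences was not tested.

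**Figure D2:**
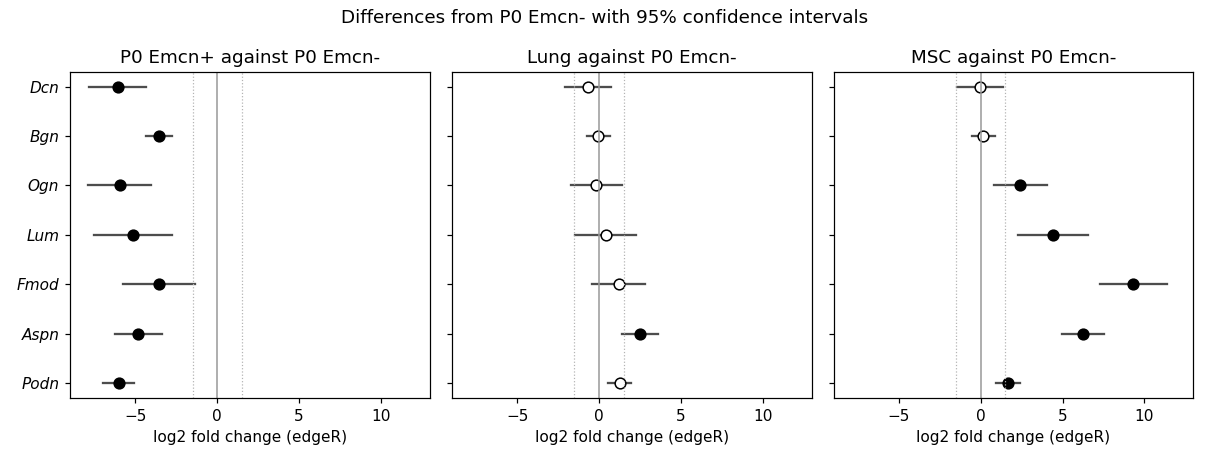
Log2 fold changes of the 7 SLRP genes against P0 Emcn- for P0 Emcn+, Lung and MSC, as points with 95% confidence intervals, filled where called, with dotted lines at the fold limit of 1.5. All 7 points are filled on the left in P0 Emcn+, Aspn alone is filled in Lung, and 5 are filled on the right in MSC, where Dcn and Bgn straddle 0.

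Emcn- cells from lung cultures were then compared with the marrow P0 Emcn- cells. Of the 7 genes only Aspn was called, higher in Lung, where 2.13% of all genes tested were called higher. Aspn was at 73.2 and 28.9 CPM in the Lung replicates, both above the 9.94 and 9.18 CPM of P0 Emcn- (log2 fold change 2.49, SE 0.49, adjusted p = 0.0186), a ratio of 7.36 within batch d and 3.14 within batch a. The call did not hold without either P0 Emcn- library (adjusted p = 0.0921 and 0.0793), without Lung replicate 1 (log2 fold change 1.63, adjusted p = 0.11) or when the model held no libraries but those 4 (adjusted p = 0.109). Podn was at 55.7 and 91.2 CPM in Lung, above both P0 Emcn- libraries, but missed the threshold (log2 fold change 1.26, adjusted p = 0.0522).

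The other 5 genes were not called between the 2 organs, and the intervals show what sizes that leaves. Bgn was at 4626 and 4599 CPM in Lung, nearly equal, with a log2 fold change of -0.03 (95% confidence interval -0.75 to 0.68). Dcn was at 902 and 1246 CPM (log2 fold change -0.67, interval -2.08 to 0.73). Ogn, at 478 and 410.3 CPM, and Lum, at 50.2 and 16.5 CPM, lay between or around the spread of the P0 Emcn- libraries and changed sign between batches. Fmod, at 5.30 and 6.96 CPM, was 4.58 times its P0 Emcn- level in batch d and 1.33 times in batch a (interval -0.43 to 2.81). The family gene Prelp was called, at 743 CPM in Lung against 163 CPM in P0 Emcn- (log2 fold change 2.25, adjusted p = 0.0116). Against P0 Emcn+, all 7 genes were higher in Lung, where 12.6% of genes tested were called higher, with log2 fold changes between 3.51 for Bgn and 7.30 for Aspn.

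MSC separated the family into 2 sets. Fmod, Aspn, Lum, Ogn and Podn were called higher in MSC than in P0 Emcn-, where 11.3% of all genes tested were called higher, and Dcn and Bgn were not called. The median log2 fold change of the 7 was 2.42 beside 0.0053 over all genes.

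Fmod showed the largest difference of the 7. It was at 2015 and 1339.8 CPM in MSC, or 71787 and 44015 counts, and at most 6.96 CPM in any other library. Against P0 Emcn- the log2 fold change was 9.33 (SE 0.92, adjusted p = 8.24e-05), and against P0 Emcn+ it was 12.89 (adjusted p = 1.06e-05). Aspn was at 964 and 380.2 CPM in MSC, above the 73.2 CPM of the next library, with a log2 fold change of 6.23 over P0 Emcn- (SE 0.58, adjusted p = 5.81e-05). Lum was at 767 and 289 CPM against at most 51.3 CPM elsewhere (log2 fold change 4.42, SE 0.95, adjusted p = 0.00602). For each of these 3 genes both MSC libraries stood above all 13 others, and the share of all genes that did so was not counted.

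Ogn was at 3571 and 1621 CPM in MSC, above every other library, but P1 came close at 1454 and 1342 CPM. Its log2 fold change over P0 Emcn- was 2.42 (SE 0.73, adjusted p = 0.0275), and this call was lost without P0 Emcn- replicate 1 (1.64, adjusted p = 0.0729), without MSC replicate 1 (1.70, adjusted p = 0.151) and when the model held just MSC and P0 Emcn- (adjusted p = 0.157). Podn was at 64.6 and 129 CPM in MSC and overlapped with Lung. Its log2 fold change over P0 Emcn- was 1.68 (SE 0.32, adjusted p = 0.00347), and 1.12 without MSC replicate 2 (adjusted p = 0.0262), which is under the fold limit. Dcn was at 2195 and 1033 CPM in MSC. Replicate 1 lay between the P0 Emcn- libraries, and replicate 2 fell just below the lower of them, which held 1108 CPM. The Dcn difference between these conditions was a log2 fold change of -0.05 (interval -1.44 to 1.35). Bgn was at 4029 and 6399 CPM (0.16, interval -0.55 to 0.87). The Bgn interval leaves no room for a change as large as the fold limit, and the Dcn interval stops just short of it. The 2 MSC cultures themselves differed in a gene-specific way, with Dcn, Lum, Fmod, Ogn and Aspn higher in replicate 1 and Bgn and Podn higher in replicate 2. MSC replicate 2 also held more of the summed endothelial markers, 362 against 42.7 CPM, and the part of this in the differences was not tested.

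Since MSC shares batch c with replicates 2 of P1 to P3, the passaged cells gave a comparison less tied to batch. Against the mean of P1 to P3 the same 5 genes were called higher in MSC, where 8.42% of all genes tested were called higher. The log2 fold changes were 10.58 for Fmod, 5.01 for Aspn, 4.30 for Lum, 3.05 for Podn and 1.86 for Ogn, with adjusted p from 3.88e-06 to 0.0217. The Ogn call was lost without MSC replicate 1 (1.14, adjusted p = 0.273) and without P2 replicate 1 (1.77, adjusted p = 0.0508). Dcn (0.73, adjusted p = 0.298) and Bgn (0.38, adjusted p = 0.297) were again not called. Within the 5 libraries of batch c, 4 of the 7 remained called beside 14.7% of all genes: Fmod (9.71, SE 0.78), Aspn (5.10, SE 0.44), Lum (3.69, SE 0.47) and Podn (3.01, SE 0.32). Ogn was no longer called there (1.503, SE 0.53, adjusted p = 0.0704). Against P0 Emcn+ all 7 were higher in MSC, where 20.1% of genes tested were called higher, from a log2 fold change of 3.71 for Bgn to 12.89 for Fmod.

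Of the neighbouring genes that belong to the SLRP family, Omd, Kera, Epyc, Ecm2 and Prelp were highest in MSC, and Optc was not. Optc, beyond Prelp on chromosome 1, was under 1 CPM on average in every condition, at 0.669 CPM in MSC and 0.825 CPM in P4. Omd, which lies between Aspn and Ogn and binds mineral, was at 226 and 169 CPM in MSC against at most 11.2 CPM elsewhere (log2 fold change over P0 Emcn- 5.72, adjusted p = 0.00169). Kera, next to Lum, had 648 and 62 counts in the MSC libraries and at most 1 in every other library. Epyc, the next gene, had 1270 and 256 counts in MSC and at most 20 elsewhere. Ecm2, on the other side of Aspn, was at 40.6 and 22.4 CPM in MSC (log2 fold change 2.02, adjusted p = 0.0105). Prelp, near Fmod, was at 3955 and 2822 CPM (4.47, adjusted p = 8.66e-05). Among other genes near these members, Btg1 before Dcn (-0.42), Nol8 after Ogn (0.18) and Btg2 after Fmod (-0.06) were not called in this comparison. The value of Cenpp, which overlaps Aspn and Ogn, is not given here. Btg1 is distant, 856.799 kb from Dcn, whereas Nol8 is 28.576 kb from Ogn and Btg2 26.892 kb from Fmod. Of all 11 other family genes 6 were called higher in MSC, the sixth being Chadl (1.84).

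The collagen fibril genes did not follow as a group, with 2 of 14 higher in MSC than in P0 Emcn- and 3 lower (median log2 fold change -0.27). Col11a1, a fibril-nucleating collagen, was higher (4.85) and so was Col12a1 (3.85), while Tnxb (-3.30) and Col5a3 (-2.56) were among the lower ones. Of 22 chondroitin and dermatan sulfate enzymes 2 were higher, among them the dermatan sulfate epimerase gene Dse (1.53), and 1 was lower. Of 9 osteolineage markers tested 3 were higher in MSC and 1 was lower, with the mineralization enzyme gene Alpl at 77.6 against 9.54 CPM. Of 10 mural cell markers 3 were higher, of 10 fibroblast markers 2 were lower, and 10 of 10 macrophage markers were lower in MSC (17.7 and 30.7 CPM in sum, against 270 and 310 CPM). The part of these cell types in the SLRP levels was not tested.

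**Figure D3:**
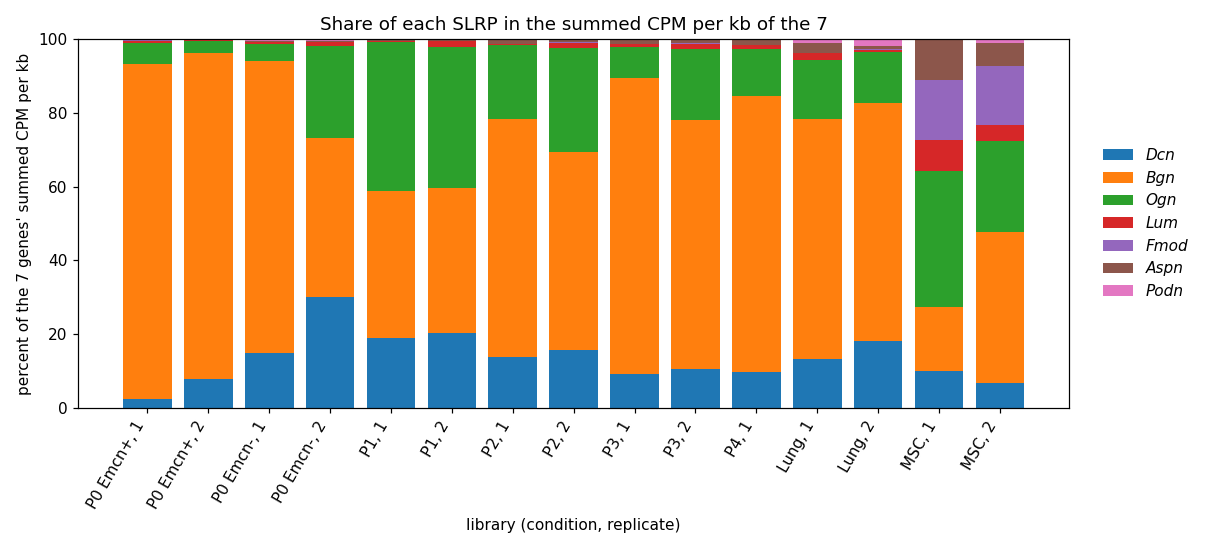
Percent of the summed CPM per kb of the 7 SLRP genes held by each gene in every library, as stacked bars with libraries along the horizontal axis, using merged exon lengths. Bgn fills 90.7% and 88.2% of the P0 Emcn+ bars, Ogn 40.1% and 38.3% of the P1 bars, and Fmod 16.1% and 15.8% of the MSC bars but at most 0.180% of any other.

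To compare genes with each other, CPM were divided by the merged exon length in kb. On this scale Bgn had the highest mean of the 7 in every condition but MSC, where the mean of Ogn was 1012 CPM per kb and that of Bgn 855. At P1 the 2 were nearly tied, with means of 548 for Bgn and 545 for Ogn, and Ogn was above Bgn in replicate 1. The length chosen matters here. With the longest coding transcript in place of the merged exons, Bgn was first in MSC too, at 2155 CPM per kb, and at P1 Dcn went from 274 to 911 CPM per kb and so from below Ogn to above it. The shares that follow hold for merged exons only. Bgn made up 79.2% of the per-length sum in P0 Emcn- replicate 1 and 43.2% in replicate 2, where Dcn took 30.1% and Ogn 24.7%. In MSC the sum was spread more evenly, with Ogn at 36.9% and 24.6%, Bgn at 17.5% and 40.8%, Fmod at 16.1% and 15.8%, and Aspn at 10.8% and 6.28%. Lung was alike between its replicates, with Bgn at 65.1% and 64.5%. By CPM, the range from lowest to highest condition was smallest for Bgn, 12.6-fold, followed by Dcn with 68.6-fold and Podn with 201-fold, and it was 7394-fold for Fmod.

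Serial passage of Emcn- cells was examined next, first against P0 Emcn-. Podn fell at P1 (log2 fold change -1.59, SE 0.33, adjusted p = 0.0108), where 3.07% of all genes tested were called lower. Podn went from 30.0 and 34.3 CPM to 10.2 and 8.90 CPM and then stayed between 9.17 and 13.1 CPM up to P4. The later differences from P0 Emcn- had an adjusted p under 0.05 at P2 and P3 but were under the fold limit (-1.12 and -1.41). The P1 call needed both P1 libraries (adjusted p = 0.0605 and 0.077 without one of them). No other member was called at P1. No member was called at P2, where 12.0% of all genes were called either way, or at P3, where 13.2% were. At P2, 2 of the 7 had an unadjusted p under 0.05 and DESeq2 called 0, and at P3 these numbers were 3 and 1, the latter being Dcn (log2 fold change -1.59, DESeq2 adjusted p = 0.0327).

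Aspn moved the other way and was called higher at P4 (log2 fold change 1.98, SE 0.55, adjusted p = 0.0374), where 6.74% of all genes tested were called higher. It was at 15.3 and 16.1 CPM at P1, 25.5 and 19.5 CPM at P2, 22.7 and 20.7 CPM at P3 and 32.3 CPM at P4, all above P0 Emcn-. The P4 call rests on 1 library and was lost with the replicate block (1.90, adjusted p = 0.0525), without either P0 Emcn- library (adjusted p = 0.111 and 0.0984) and when the model held just P4 and P0 Emcn- (adjusted p = 0.12).

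Ogn was at 148 and 894 CPM in P0 Emcn- and at 1454 and 1342 CPM at P1, which was not a call (log2 fold change 1.59, adjusted p = 0.145). The outcome hung on 1 library. Without P0 Emcn- replicate 2, the shallowest library and the one with high Ogn, the difference was 3.37 and was called (adjusted p = 0.00938). Dcn at P1, with 1573 and 1629 CPM, was between the P0 Emcn- libraries (log2 fold change -0.0049, interval -1.40 to 1.39). Fmod was under 1 CPM at P1 (16 and 20 counts), with a log2 fold change of -2.08 that was called with the replicate block (-2.01, adjusted p = 0.0371) and by DESeq2 (-2.23, adjusted p = 0.0157) but not in the primary test (adjusted p = 0.114).

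**Figure D4:**
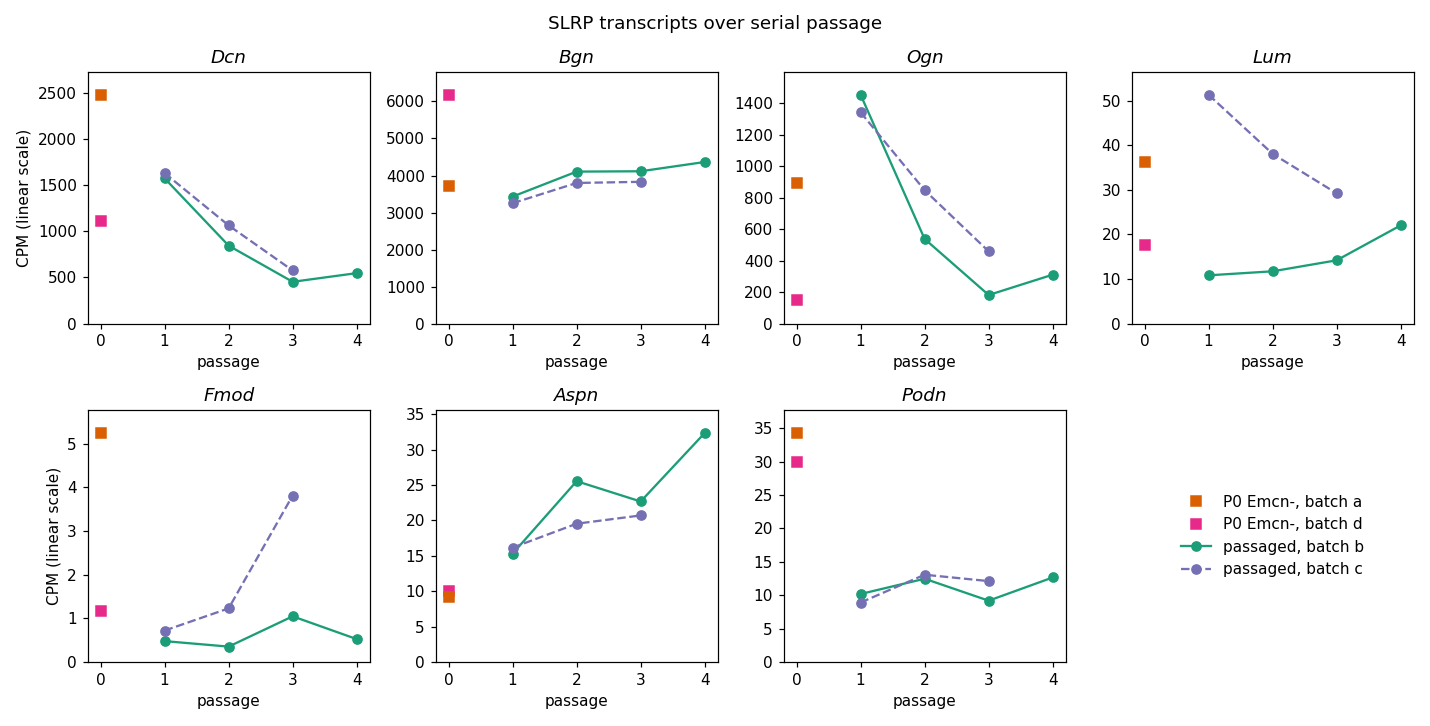
CPM of each SLRP gene against passage on linear axes starting at 0, with P0 Emcn- libraries as squares and passaged libraries as circles joined within batch b and batch c. Dcn and Ogn go down from P1 to P3 in both batches, Aspn goes up from P1 to P2 in both, and Lum goes down in batch c and up in batch b.

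Within the passaged series Dcn and Ogn went down side by side from P1 to P3. Dcn went from 1573 to 844, 453 and 547 CPM over P1, P2, P3 and P4 in batch b, and from 1629 to 1063 and 575 CPM over P1 to P3 in batch c. Ogn went from 1454 to 538, 182 and 311 CPM in batch b, and from 1342 to 848 and 459 CPM in batch c. Dcn was thus 3.47-fold lower at P3 than at P1 in batch b and 2.83-fold lower in batch c, and Ogn 7.99-fold and 2.92-fold lower. From P3 to P4, seen in batch b alone, both were higher again, Dcn 1.21-fold and Ogn 1.71-fold.

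Whether these differences passed a test depended on the model. In the fit over all 15 libraries no member was called between P3 and P1 (0.222% of all genes were called) or for the slope over P1 to P4 (0.340% called). For P3 against P1 the values were -1.61 for Dcn (adjusted p = 0.314) and -2.11 for Ogn (adjusted p = 0.244), 3 of the 7 had an unadjusted p under 0.05, and DESeq2 called 1, Ogn (-2.09, adjusted p = 0.0367). For the slope, 1 of the 7 had an unadjusted p under 0.05 and DESeq2 called 0. When only the 6 libraries of P1 to P3 were fitted with batch as a term, 5 of the 7 were called for a log2 change per passage, as were 30.0% of all genes tested. Dcn changed by -0.81 per passage (SE 0.05, adjusted p = 0.000435) and Ogn by -1.12 (SE 0.15, adjusted p = 0.00324). Bgn rose by 0.14 (SE 0.04, adjusted p = 0.0317), Aspn by 0.25 (SE 0.06, adjusted p = 0.0225) and Fmod by 0.93 (SE 0.19, adjusted p = 0.0144). That fit has 2 residual degrees of freedom, and the same block over all 15 libraries gave no call for P3 against P1 (Dcn -1.62, adjusted p = 0.141, Ogn -2.24, adjusted p = 0.175).

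Bgn had the narrowest relative range of the 7 over passage. It was at 3431 and 3252 CPM at P1, 4105 and 3799 CPM at P2, 4114 and 3829 CPM at P3 and 4365 CPM at P4. Fmod remained at 12 to 103 counts per passaged library, and its higher P3 level was 1.04 CPM in batch b and 3.81 CPM in batch c. Lum differed more between batches than between passages, at 10.8, 11.7, 14.2 and 22.0 CPM over P1 to P4 in batch b and at 51.3, 38.0 and 29.2 CPM over P1 to P3 in batch c. Lum thus did not share the course of Dcn, its neighbour on chromosome 10, in batch b.

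The family gene Prelp took a course opposite to Dcn and Ogn. It was at 361 and 359 CPM at P1, 1063 and 957 CPM at P2, 1373 and 1394 CPM at P3 and 1517 CPM at P4, and was called higher than P0 Emcn- at P2 (log2 fold change 2.84), P3 (3.28) and P4 (3.45). Its slope over P1 to P4 was 0.69 per passage and missed the threshold (adjusted p = 0.0785). Of 14 collagen fibril genes, 6 were lower than in P0 Emcn- at each of P1, P2, P3 and P4, among them Col1a1 (-2.81, -2.94, -2.54 and -2.56) and Col3a1 (-2.43, -2.83, -2.83 and -1.79). The summed macrophage markers went from 85.3 and 262 CPM at P1 to 17.7 and 12.4 CPM at P3. Of these markers 5 of 10 were called lower at P3 than at P1, where 0.144% of all genes tested were called lower. These macrophage marker calls did not hold without P1 replicate 2 or without P3 replicate 1. Summed marrow stromal and adipogenic markers went from 3346 and 3361 CPM at P1 to 1002 and 1494 CPM at P3. Most of that sum was Cxcl12 and Lpl, the latter at 2011 and 1853 CPM at P1 and 440 and 522 CPM at P3. The list did not move together, since Lepr went from 7.02 and 41.1 CPM up to 11.6 and 70.0 CPM. These genes were named after their values were seen. Summed osteolineage markers went up, from 1450.4 and 1785 CPM at P1 to 5615 and 5412 CPM at P3. Nearly all of it was Spp1 (osteopontin), a gene named here after its values were seen. Spp1 was not called between P3 and P1 (log2 fold change 1.83, edgeR adjusted p = 0.325). The part of these in the lower Dcn and Ogn was not tested.

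The genes whose pattern over the 15 libraries came closest to each member were found as the smallest root mean square (RMS) difference of centred log2(CPM + 1). Dcn was closest to Svep1 (RMS difference 0.56, beside a standard deviation of Dcn itself of 2.08), Gpm6b and Ssc5d, and Ogn to Gpm6b (0.80), Ism1 and Cdh11. Bgn had the tightest match, Arhgef17 (0.26), followed by Cercam and Cacna2d1. Over the 8 condition means instead, just 1 of the 3 closest genes was shared for Bgn and 1 of 3 for Ogn. Podn was closest to Kcne4 (0.51), Lum to Grb14 (0.74) and Aspn to the collagen gene Col11a1 (0.61). Fmod, whose own standard deviation was 3.31, was closest to the cartilage collagen gene Col2a1 (1.01), then Scg2 and Lgr5. Over the condition means Grb14, Col11a1 and Col2a1 were second, behind Ccdc80 for Lum, Penk for Aspn and Scg2 for Fmod. Among the members themselves the closest pairs were Lum and Aspn (0.86) and Dcn and Ogn (0.97), and in neither pair are the genes neighbours. The points share libraries and depth, and these are descriptions.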

How the data were processed

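RNA-seq of 15 cultures was analysed from 1 gene table. The authors trimmed the reads and processed them with STAR and Salmon on GRCm38, summarised transcripts to genes, and deposited whole-number counts without normalization. How the estimated values were rounded is not given in the sources used here. CPM were computed on the total count, and levels between genes were compared per kb of merged exons (GENCODE M21).

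Counts were fitted across all genes with edgeR 4.0.16 in R 4.3.3 (TMM factors, filterByExpr with a minimum count of 10, quasi-likelihood F test, 1 coefficient per condition over all 15 libraries, 7 residual degrees of freedom), with Benjamini-Hochberg adjustment over 19401 genes. Every adjusted p is from this model unless DESeq2 1.42.0, the replicate block, a smaller set of libraries or a left-out library is named with it. Leaving P4 out, conditions had 2 replicates, from separate cultures. P4 with 1 library borrows its spread from the other conditions.

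The 7 members and all gene lists were chosen with earlier results of these data known. Named genes were all members, all other SLRP family genes, up to 4 called genes of largest change per other list and comparison, the 3 closest in pattern per member and the 2 nearest protein-coding genes on each side. Replicate numbers follow the labelled batches among P0 and Lung libraries, and likewise among P1 to P3. Same-numbered libraries deviated together there, with correlations over 18306 genes of 0.136 to 0.335 and of 0.528 to 0.706. Pairs with no shared batch ranged from -0.124 (P0 Emcn- and MSC) to 0.212 (P0 Emcn- and P3), which overlaps with the first set. The replicate block followed the labels and used 2 batch terms. On simulated counts with 200 changed genes, 150 were recovered for P0 Emcn+ against P0 Emcn- over 18399 genes, with 3 false calls.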

Additional observations from a re-analysis of the deposited data

How the results depend on the processing

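Besides the tests above, DESeq2, RLE factors, no filter, a filter of 50 counts in 2 libraries, the replicate block, a model of the compared conditions alone, no fold limit and leaving out each library were tried. Of 959 values of single members 883 kept their direction and side of the threshold, 21 lost the call, 19 gained it and 36 changed sign, and of 147 counts of members called 122 stayed within 1.5 times. For P0 Emcn+ against P0 Emcn-, and for MSC against P0 Emcn- or against P1 to P3, no such count moved beyond that. The cause of each change below was not tested. Counts as low as those of Fmod in P0 Emcn+ (7 and 6) are where depth limits precision.

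With the replicate block the members called against P0 Emcn- were 2 at P1, 1 at P2, 1 at P3 and 0 at P4. Of all 19401 genes tested, 1979, 2495, 2696 and 1798 were called in these comparisons. With the block the sign changed for Ogn in Lung (0.14), Dcn (0.11) and Lum (-0.032) at P1, Lum at P2 (-0.17), Lum (0.71), Bgn (-0.021) and Ogn (0.0023) at P4, and for the slope of Lum (0.22). It changed the call on Ogn between MSC and P1 to P3 too (1.60, adjusted p = 0.0804). DESeq2 called 2 members at P1, 1 at P3, 2 at P4 and 1 for P3 against P1. Its calls over all 19401 genes were 1945, 2569, 2087 and 303 in the same order. Without a fold limit 1 was called at P2 and 1 at P3. In a model of the compared conditions alone 0 were called in Lung and 0 at P4, 1 for P3 against P1 and 1 for the slope, and P1 to P3 with the block gave 5. Over all genes, P3 against P1 had 43 calls, 106 with the block and 303 by DESeq2, and the slope had 66, 46 and 689.

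Leaving out 1 library at a time gave 0 to 1 members called in Lung, 0 to 2 at P1, 0 to 1 at P2, 0 to 1 at P3 and 0 at P4. Log2 fold changes that changed sign in Lung spanned -1.13 to 0.0048 for Dcn, -0.65 to 1.01 for Lum, -0.37 to 0.39 for Bgn and -0.93 to 1.64 for Ogn. In MSC they spanned -0.73 to 0.62 for Dcn and -0.19 to 0.57 for Bgn. At P1 they spanned -0.48 to 0.66 for Dcn, -1.12 to 1.08 for Lum and -0.75 to 0.0034 for Bgn. At P2 they spanned -0.95 to 0.71 for Lum, -0.45 to 0.30 for Bgn and -0.16 to 2.41 for Ogn. At P3 they spanned -0.68 to 0.47 for Lum, -1.20 to 1.20 for Fmod, -0.46 to 0.30 for Bgn and -1.29 to 1.27 for Ogn. At P4 they spanned -0.50 to 0.53 for Lum, -0.30 to 0.46 for Bgn and -1.30 to 1.27 for Ogn. For P3 against P1, Lum spanned -1.20 to 1.00, and its slope -0.36 to 0.30.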

Other observations

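Proteases that cleave SLRPs or process their precursors were also measured. In P0 Emcn+ against P0 Emcn-, 6 of 10 tested were lower and 1 was higher (median log2 fold change -2.33), led by Mmp3 (-4.40), Mmp9 (-3.87), Adamts5 (-3.70) and Mmp2 (-3.68). In MSC, Mmp13, the main collagenase of bone and cartilage, was higher than in P0 Emcn- (5.43) and than in P1 to P3 (8.80). In Lung, Mmp13 (-4.44) and Mmp9 (-6.73) were lower and Mmp3 (3.28) and Tll1 (4.53) higher than in P0 Emcn-. The Lung libraries held only 28 and 2 counts of Mmp13 and 2 and 2 of Mmp9, so the sizes of these differences are imprecise.

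Among 16 tested genes for ligands and receptors bound by SLRPs, 8 were higher and 4 lower in P0 Emcn+ against P0 Emcn-, which is no common direction. The receptor gene Egfr (-6.12), a target of Dcn, and the endocytic receptor gene Lrp1 (-5.10) were lower, and Kdr (5.65), the VEGF receptor gene, and the integrin gene Itga2 (4.32) were higher. In MSC 4 were higher and 0 lower than in P0 Emcn-, namely Ccn2 (3.76), Itga2 (3.71), Ccn4 (3.11) and Tgfb2 (1.72). Ccn2, a matrix protein that binds TGF-beta, was also the 1 gene of this list called between P3 and P1 (3.09, edgeR adjusted p = 0.0294). Of all genes tested, 0.222% were called in that comparison. The Ccn2 call did not hold without P1 replicate 2 or without P3 replicate 1. P0 Emcn- is the reference in most of these values, so they share its 2 libraries.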
